A study of Mus musculus with 15 samples.

Results

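The genes described here are 8 rows of a table of raw gene counts, 7 that encode actins and actin-binding proteins and S100a4. They were picked by symbol out of 26366 genes, with their counts in the 3 tissues already known, so their tissue values are given as a description and carry no test. The 8 rows are Actb (ENSMUSG00000029580.15, chromosome 5), Actg1 (ENSMUSG00000062825.16, chromosome 11), Tmsb4x (ENSMUSG00000049775.17, chromosome X), Tmsb10 (ENSMUSG00000079523.9, chromosome 6), Pfn1 (ENSMUSG00000018293.5, chromosome 11), Cfl1 (ENSMUSG00000056201.9, chromosome 19), Coro1a (ENSMUSG00000030707.16, chromosome 7) and S100a4 (ENSMUSG00000001020.9, chromosome 3). The libraries are RNA sequencing of cells labelled as eosinophils, granulocytes of type 2 immunity, from 7 wild-type (WT) C57/BL6 mice. All 7 mice had been given the carcinogen 4-NQO over 8 weeks and its vehicle propylene glycol over the next 8 weeks, a course that the labels call pre-cancer, and no library of untreated mice was analysed here. Esophagus gave 7 libraries (F mice 1, 2, 5 and 6; M mice 3, 7 and 8), and colon and bone marrow gave 4 each (F mice 5 and 6; M mice 7 and 8). The F mice shared cage 1 and the M mice cage 2, so sex and cage cannot be told apart. Esophagus and colon cells were selected from lamina propria with antibody-coated magnetic beads, and the third group is called bone marrow-derived, with no word on whether the cells were cultured.

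Actin is the protein of the thin filaments that move and shape a cell. Leukocytes keep a large pool of actin monomers ready: the beta-thymosins (Tmsb4x, Tmsb10) hold monomers back, profilin (Pfn1) recharges them and feeds them to growing filament ends, cofilin (Cfl1) cuts old filaments, and coronin 1A (Coro1a) binds filaments in blood cells. S100a4 is a small calcium-binding protein that binds non-muscle myosin and is abundant in many motile leukocytes and fibroblasts.

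Total counts ran from 85677 to 371218 in the esophagus libraries, from 227179 to 612386 in the colon libraries and from 189060 to 286166 in bone marrow. A count of 0 therefore allows up to 4.90 to 35 CPM, where CPM scales a count to a common library size. This floor is 3 counts over the library total, while the levels below are over a scaled library size. On the scale of the levels 3 counts come to more in every library but esophagus of mouse 3, for instance 25.4 CPM in bone marrow of mouse 5 (floor 15.8). Intervals and floors cover counting error only. The esophagus libraries of mice 1 and 3 and the colon library of mouse 8 held 3.87%, 2.84% and 7.52% mitochondrially encoded counts, against 0.297% to 1.0% in the other 12. The identity of the cells rests on the labels: Epx, the eosinophil peroxidase, had 0 counts in 7 of 7 esophagus libraries, 0 to 9 in the colon libraries and 2 to 5 in bone marrow, and Prg2, the major basic protein, had 0 in 6 of 7 esophagus libraries (10 in the other), 3 of 4 colon libraries (1 in the other) and 4 of 4 bone marrow libraries. Ccr3, the eotaxin receptor, had 0 to 23 counts in esophagus, 15 to 31 in the colon libraries and 1 to 9 in bone marrow. Il5ra, the interleukin-5 receptor, had 0 to 33, 5 to 23 and 4 to 8 counts, and Siglecf, a surface lectin, 0 to 9, 2 to 13 and 0 to 6 in the same order. Over 14 eosinophil markers the summed level was 270 to 601 CPM in esophagus, 308 to 415 CPM in the colon libraries and 260 to 521 CPM in bone marrow.

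The gene copies and start sites behind the counts are shown first, since they bear on which row a read could be given to. The coding sequences of Actb and Actg1 are both 1125 bases long and carry the same base at 997 positions (88.6%; GENCODE M21 transcripts). Their longest identical run is 62 bases, coding bases 889 to 950 in both genes, and a read that lies inside it belongs to both:
Actb and Actg1, shared run: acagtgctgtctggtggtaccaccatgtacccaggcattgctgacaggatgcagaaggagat
Of all stretches of 50 bases in the members' coding transcripts, 45.6% in Actg1, 47.4% in S100a4, 27.0% in Tmsb10, 20.7% in Cfl1 and 12.2% in Actb also stand in a transcript of another gene, and 0% in Tmsb4x, Pfn1 and Coro1a. For Actg1 the largest overlap is with the pseudogene Gm12715 (41.1%), and for S100a4 it is with Gm42674, which has no row in the table. How such reads were counted is not given in the sources used here, so the values of these 5 genes are uncertain to that extent.

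Start sites were taken from RefSeq (GRCm38.p6), where 7 of the 8 genes were matched, and Actb was not. Among the 250 bases before each start, the CArG box, the binding motif of serum response factor, a regulator of cytoskeletal genes, was present in Actg1 alone of the 7, and TATAAA (either strand) in S100a4 alone. Of 32851 promoters of the same length 1.47% hold a CArG box and 12.4% TATAAA. Motif letters are in capitals below, 5′ to 3′, for the genes with a motif and for Tmsb4x, the gene with the widest spread of counts, which has neither. Actg1 is chr11:120348496-120348745 on the minus strand, S100a4 chr3:90603520-90603769 on the plus strand and Tmsb4x chrX:167209219-167209468 on the minus strand.
Actg1: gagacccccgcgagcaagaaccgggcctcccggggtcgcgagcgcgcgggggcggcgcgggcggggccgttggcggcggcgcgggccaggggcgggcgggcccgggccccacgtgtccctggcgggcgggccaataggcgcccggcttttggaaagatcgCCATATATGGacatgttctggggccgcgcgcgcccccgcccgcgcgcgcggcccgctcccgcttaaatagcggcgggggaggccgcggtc
S100a4: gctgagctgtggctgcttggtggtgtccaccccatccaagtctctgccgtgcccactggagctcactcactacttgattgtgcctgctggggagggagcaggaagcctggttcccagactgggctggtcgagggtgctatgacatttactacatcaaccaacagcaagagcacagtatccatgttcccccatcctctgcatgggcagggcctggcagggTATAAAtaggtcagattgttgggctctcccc
Tmsb4x: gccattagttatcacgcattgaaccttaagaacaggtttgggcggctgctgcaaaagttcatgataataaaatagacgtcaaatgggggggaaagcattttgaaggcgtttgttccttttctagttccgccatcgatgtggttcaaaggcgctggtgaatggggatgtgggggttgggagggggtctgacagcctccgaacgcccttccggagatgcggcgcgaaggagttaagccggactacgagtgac
The CArG box of Actg1 begins 90 bases and the TATAAA of S100a4 31 bases before the start. A motif is a description of these letters and carries no statement on binding.

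**Figure D1:**
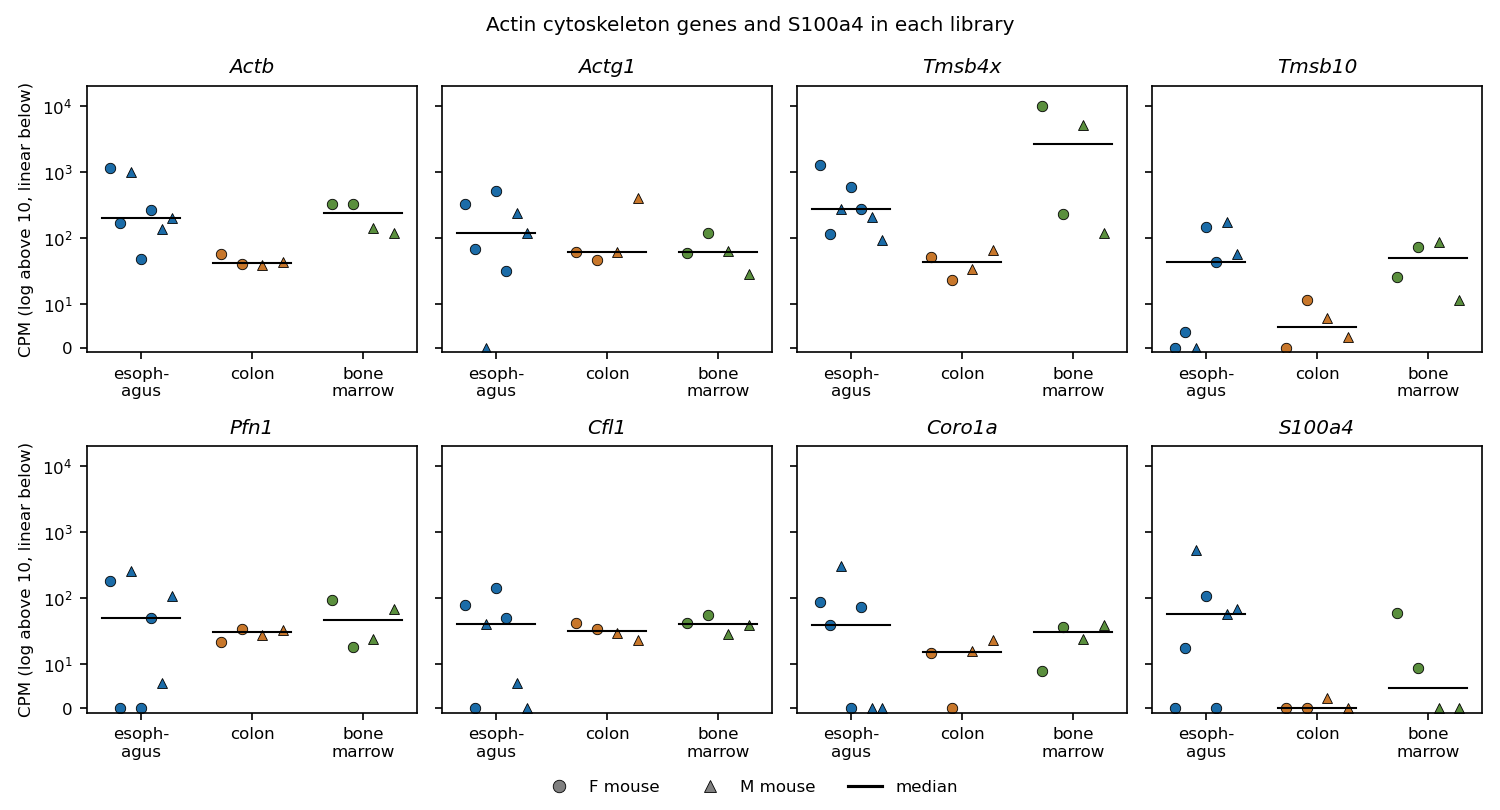
Level of each of the 8 genes in each library (CPM, log axis above 10 and linear below), with esophagus, colon and bone marrow from left to right, circles for F and triangles for M mice and a line at each group's median. Tmsb4x lies above all 4 colon libraries in all 7 esophagus libraries, and its bone marrow libraries fall into a pair at 5046 and 9822 CPM and a pair at 120 and 229 CPM.

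Actb encodes beta-actin, the main cytoplasmic actin. It was at 48.0 to 1131 CPM in esophagus (median 201), at 56.3, 39.9, 38.9 and 43.3 CPM in colon of mice 5 to 8, and at 330, 329, 140 and 120 CPM in bone marrow of the same mice. In 6 of 7 esophagus libraries it was above every colon library, the exception being mouse 5, and in the 4 mice with both tissues esophagus was higher in 3. No colon library reached the lowest bone marrow library. The group means were 419 ± 444 CPM in esophagus (SD, n = 7), 44.6 ± 8.04 in the colon libraries and 230 ± 116 in bone marrow (SD, n = 4 each). The 2 highest esophagus libraries, mouse 1 (1131 CPM) and mouse 3 (988 CPM), are among those high in mitochondrial counts. The highest of the other 5 was at 260.3 CPM. In bulk samples fewer cells of a type and less RNA per cell cannot be told apart, which holds for every level given here.

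Actg1 encodes gamma-actin, the other cytoplasmic actin. In esophagus it ranged from 0 CPM (mouse 3) to 516 CPM (mouse 5), with a median of 119 CPM. In colon it was at 61.2, 45.6, 61.7 and 405 CPM in mice 5 to 8, and in bone marrow at 59.2, 119, 62.6 and 28.5 CPM. The colon of mouse 8 thus stands alone in its group, and the 3 tissues overlap. In esophagus the 2 actins did not follow each other: mouse 3 had 98 Actb and 0 Actg1 counts, while mouse 5 had 4 Actb and 43 Actg1 counts. The colon library of mouse 8 was also the one with a summed level of 4164 CPM for 17 colon epithelium markers, of which 15 were detected, against 188 to 316 CPM in the other colon libraries, 229 to 705 CPM in esophagus and 347 to 603 CPM in bone marrow. Car1 and Krt18 of that list were at 0 in all bone marrow libraries and Phgr1 in all esophagus libraries. The part of epithelial RNA in the Actg1 level of that library was not tested.

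Tmsb4x encodes thymosin beta-4, the main monomer-holding protein of blood cells. It was at 94.2 to 1277 CPM in esophagus (median 272), at 51.4, 22.8, 34.3 and 66.3 CPM in colon of mice 5 to 8, and at 9822, 229, 5046 and 120 CPM in bone marrow of the same mice. All 7 esophagus libraries were above all 4 colon libraries, and all 4 bone marrow libraries were above them too. Esophagus and bone marrow overlapped, since the bone marrow of mice 6 and 8 lay inside the esophagus range. The counts behind these levels were 1162 and 1048 in bone marrow of mice 5 and 7, and 25 and 21 in bone marrow of mice 6 and 8. The bone marrow pair at the top is 1 F and 1 M mouse, and so is the pair at the bottom, so the split runs across sex and cage.

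Tmsb10 encodes thymosin beta-10, with the same role. It was at 0 to 176 CPM in esophagus (median 43.4), with 2 of 7 libraries at 0 counts, at 0, 11.4, 6.86 and 2.55 CPM in colon of mice 5 to 8, and at 25.4, 73.1, 86.7 and 11.4 CPM in bone marrow. The 4 mice with all tissues had more in esophagus than in colon in 4 of 4, but these rest on 0 to 3 counts per colon library. The bone marrow libraries of mice 5 and 7, the high pair for Tmsb4x, held 3 and 18 Tmsb10 counts, against 8 and 2 in mice 6 and 8, so the split of Tmsb4x does not run through this gene.

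Pfn1, profilin 1, was at 0 to 262 CPM in esophagus (median 49.6), at 22.0 to 34.2 CPM in the colon libraries and at 18.3 to 93.0 CPM in bone marrow. Its highest esophagus libraries were mouse 3 (262 CPM) and mouse 1 (182 CPM), the same as for Actb. Cfl1, cofilin 1, was at 0 to 144 CPM in esophagus (median 40.3), at 22.9 to 41.6 CPM in the colon libraries and at 28.9 to 54.9 CPM in bone marrow. Both genes overlapped between all 3 tissues. Coro1a, coronin 1A, was at 0 to 302 CPM in esophagus (median 38.7), at 0 to 22.9 CPM in the colon libraries and at 8.45 to 39.9 CPM in bone marrow, with 3 of 7 esophagus libraries at 0 counts. Cfl1 and Coro1a had 105 and 104 counts over all 15 libraries and did not pass the filter on low counts, so no fold change is given for them.

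S100a4 had 89 of its 98 counts in esophagus, with 0, 5, 54, 9, 0, 10 and 11 counts in mice 1, 2, 3, 5, 6, 7 and 8. The 4 colon libraries together held 1 count (mouse 7), and the bone marrow libraries 7, 1, 0 and 0 counts in mice 5 to 8. In levels this was 0 to 544 CPM in esophagus (median 56.9), 0 to 2.29 CPM in the colon libraries and 0 to 59.2 CPM in bone marrow. The 5 esophagus libraries with any count lay above every colon library, and mice 1 and 6 had none. The ratios that follow pool the libraries of a tissue, so their intervals cover counting error alone and not the spread between mice. The pooled esophagus counts were 114 times those of colon for equal depth (89 counts against 1; exact 95% interval 20 to 4566), and 49.4 times (8.31 to 2007) without esophagus of mouse 3, which held 54 of the 89 counts. The pooled colon counts were 0.0540 times those of bone marrow (1 count against 8; 0.00122 to 0.403), and 0.348 times (0.00444 to 27.4) without bone marrow of mouse 5, which held 7 of the 8 counts.

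**Figure D2:**
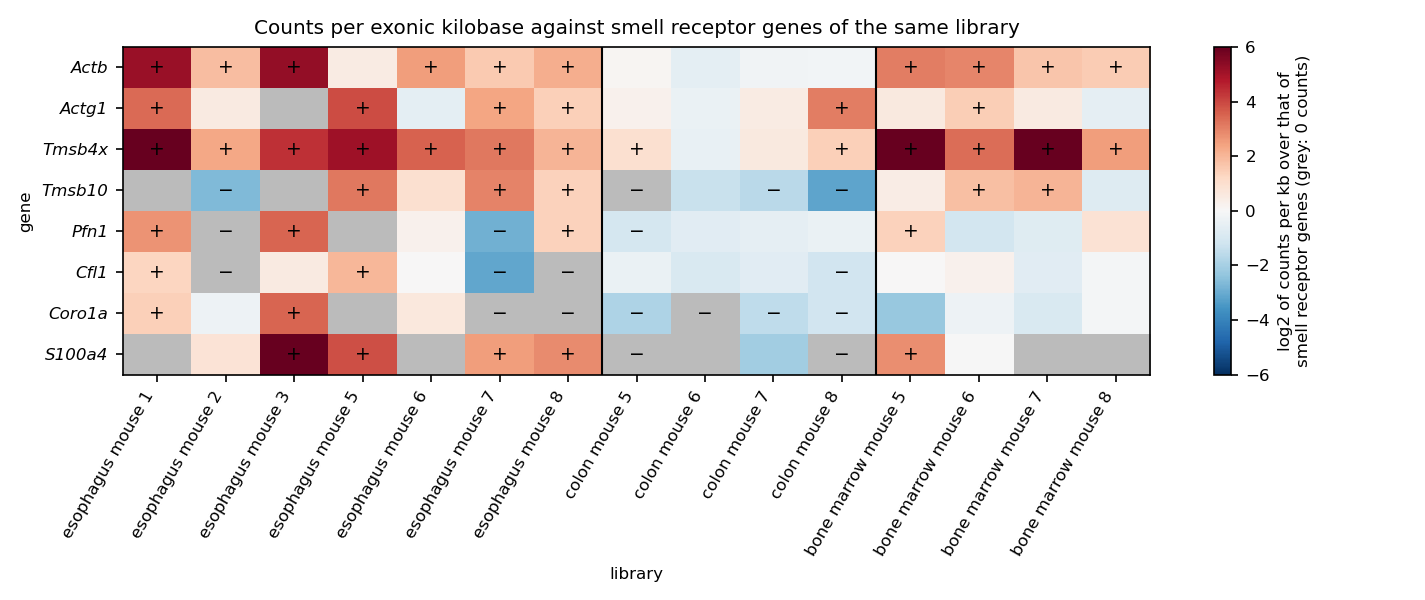
Counts per exonic kilobase of each gene, divided by those of smell receptor genes in the same library (log2 colour scale that ends at 6 on either side; grey squares had 0 counts), with rows for genes and columns for libraries, esophagus first, then colon and bone marrow. A plus marks a count above and a minus a count below the smell receptor density beyond its exact 95% Poisson interval, and the pluses number 31 of 56 squares in esophagus, 3 of 32 in the colon libraries and 13 of 32 in bone marrow.

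The members were also set against the counts per exonic kilobase of 1439 smell and pheromone receptor genes, known for their use in the nose, in the same library. Exonic length covers all annotated exons of a gene and can exceed that of its coding transcripts, so different genes compare only roughly on this scale. Pfn1 has 2405 exonic bases but 977 distinct stretches of 50 bases in its coding transcripts, so its ratios may be too low. Those receptor genes stood at 0.958 to 4.85 counts per kilobase in esophagus, 3.94 to 7.86 in the colon libraries and 1.74 to 3.40 in bone marrow. Over all 120 pairs of member and library, 47 (39.2%) exceeded that density beyond the exact 95% Poisson interval of their count. Among coding genes, here the autosomal ones other than members and receptor genes, 7.35% of pairs did so. That set holds no gene of chromosome X, while the members include Tmsb4x. In esophagus the members' share was 55.4% (31 of 56 pairs; 10.46% for coding genes), in colon 9.38% (3 of 32; 3.08%) and in bone marrow 40.6% (13 of 32; 6.19%). In colon 34.4% of member pairs lay below the receptor density, as did 59.2% of coding genes.

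Tmsb4x was above the receptor density in 13 of 15 libraries and Actb in 10 of 15. The others were above it in 6 (Actg1), 5 (Tmsb10, S100a4), 4 (Pfn1) and 2 (Cfl1, Coro1a) libraries. The largest ratios on this scale were 487 (459 to 515) for Tmsb4x in bone marrow of mouse 5, 225 (211 to 239) for Tmsb4x in bone marrow of mouse 7 and 96.5 (72.5 to 126) for S100a4 in esophagus of mouse 3. Tmsb4x in esophagus of mouse 1 stood at 79.5 (68.2 to 92.2), and Actb stood at 36.0 (30.6 to 42.2) and 38.2 (31.0 to 46.5) in esophagus of mice 1 and 3. In the same esophagus libraries Tmsb10 had 0 counts, so high ratios were not shared by all members.

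In colon, Actb lay within the interval in 4 of 4 libraries, at 0.662 to 1.09 times the receptor density. A beta-actin signal was thus not detectable over that density at this depth in any colon library. The 3 colon values above it were Tmsb4x in mouse 5 (1.95; 1.21 to 2.98) and mouse 8 (2.69; 1.75 to 3.93) and Actg1 in mouse 8 (8.47; 7.20 to 9.89). Coro1a was below the density in 4 of 4 colon libraries.

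**Figure D3:**
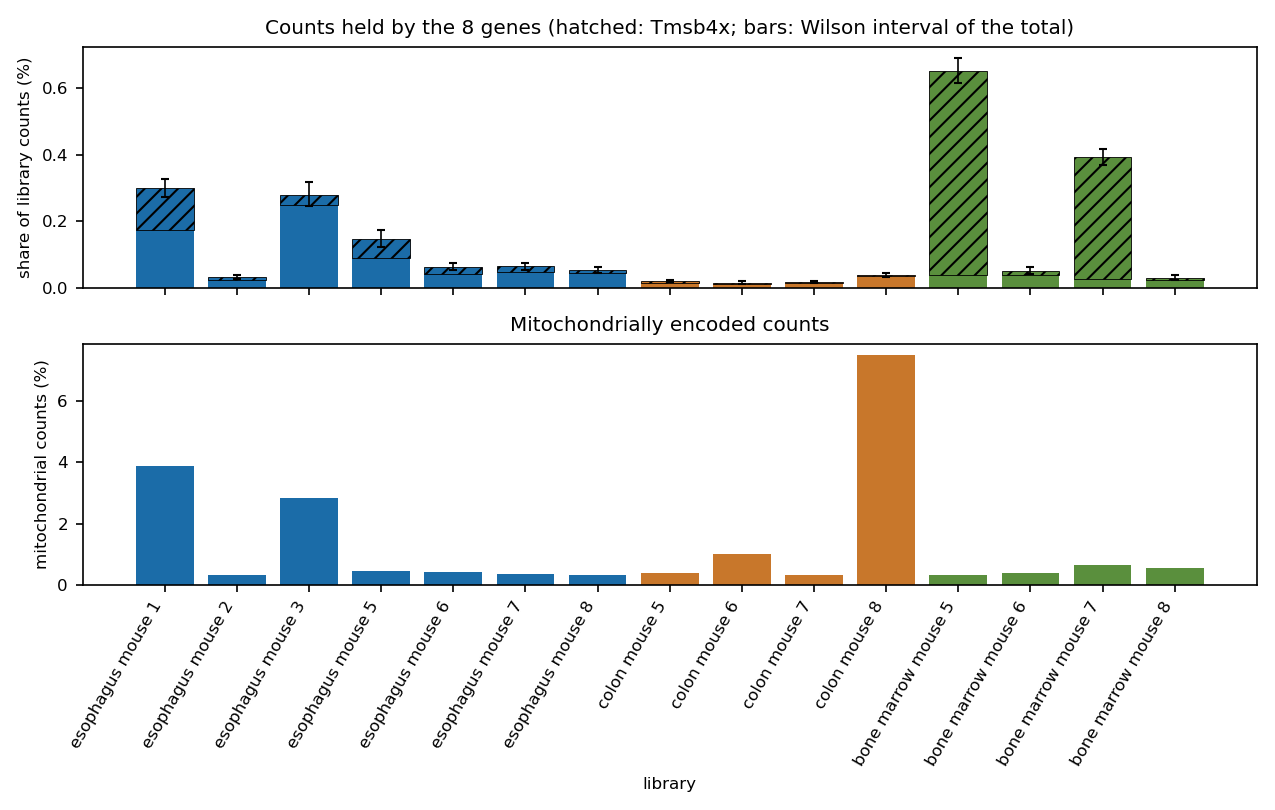
Top, share of each library's counts held by the 8 genes (hatched part: Tmsb4x; error bars: 95% Wilson interval of the total). Bottom, share of mitochondrially encoded counts. Bars are coloured by tissue, in the order esophagus, colon, bone marrow. The members' share is highest in bone marrow of mouse 5 (0.652%), and the mitochondrial share in colon of mouse 8 (7.52%).

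Together the 8 genes held 0.0312% to 0.299% of the counts in esophagus (median 0.0643%), 0.0145% to 0.0382% in colon (median 0.0183%) and 0.0304% to 0.652% in bone marrow (median 0.222%). Tmsb4x alone made up 94.1% and 93.2% of the members' counts in bone marrow of mice 5 and 7, and 26.3% and 28% in mice 6 and 8. Without Tmsb4x the 4 bone marrow libraries came to 0.0219% to 0.0386%, so the other 7 genes did not show the split.

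Fold changes came from an edgeR quasi-likelihood fit over all 10357 genes that passed the filter, 6 members among them, with p-values adjusted by the Benjamini-Hochberg method and a gene called at an adjusted p under 0.05. Between esophagus and colon the log2 differences were 3.20 (SE 0.62) for Actb, 0.34 (0.71) for Actg1, 3.17 (1.21) for Tmsb4x, 3.51 (1.30) for Tmsb10, 1.54 (1.02) for Pfn1 and 6.45 (1.51) for S100a4. S100a4 passed the filter through its esophagus libraries alone (89 counts, beside 1 in colon and 8 in bone marrow). Its positive value was thus set in advance. With it all 6 were positive in this fit, and their median was 3.19, beside -0.21 over all genes tested, which is a description only. The sign of 2 of them turned elsewhere: Pfn1 stood at -1.05 when voom weighted libraries by quality and at -0.13 when mice were a random block, and Actg1 at -0.16 with that block, -0.13 without esophagus of mouse 5 and -0.013 without colon of mouse 6. The comparison called 9 genes (7 higher and 2 lower in esophagus; 6 and 3 with upper quartile scaling, 8 and 1 with RLE scaling), and 2 of the 6 members, Actb and S100a4, were among the 7, where 0.0676% of genes tested were called higher. With mouse as a block the comparison called 4 genes and neither member. Since the members were picked with this contrast known, nothing is read from that count.

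Leaving out the 3 libraries high in mitochondrial counts, an alternative added after the data were seen, left the difference between esophagus and colon at 1.82 for Actb, 1.69 for Actg1, 2.71 for Tmsb4x, 3.77 for Tmsb10, 0.21 for Pfn1 and 5.0 for S100a4. Neither Actb nor S100a4 was then called, and the value of Pfn1 was near 0. Actg1 moved most with 1 library, since without colon of mouse 8 alone it stood at 1.65. All 7 esophagus libraries exceeded all 4 colon libraries in 1 member, Tmsb4x, a pattern that 0.0579% of genes tested showed in the same direction.

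Markers of other leukocytes were measured beside these values. The summed level of 24 transcripts abundant in leukocytes was 2098 to 7399 CPM in esophagus, 880 to 6029 CPM in the colon libraries and 1579 to 2779 CPM in bone marrow. The top of the colon range is mouse 8 alone, and the other 3 colon libraries, at 880 to 1049 CPM, lay below every esophagus library. In that list 2 of the 18 tested genes, Cd74 (3.56) and H2-Ab1 (3.21), were called higher in esophagus than in colon. Both are of MHC class II presentation. Of all genes tested 0.0676% were called higher, and of the 18 genes 11 were positive and 7 negative. The list was written with earlier results of these data known, so nothing is read from its count. The 13 macrophage and monocyte markers summed to 565 to 1176 CPM in esophagus, 438 to 586 CPM in the colon libraries and 361 to 969 CPM in bone marrow, with none of the 13 at 0 in a whole tissue. Their part in the members' levels was not tested.

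Between esophagus and bone marrow the log2 differences were 0.87 (SE 0.55) for Actb, 1.46 (0.78) for Actg1, -3.23 (1.02) for Tmsb4x, 0.28 (1.09) for Tmsb10, 0.75 (1.0) for Pfn1 and 2.77 (1.22) for S100a4. None of the 6 members was called, where 0.0193% of genes tested were called higher and 0.811% lower in esophagus (475 genes had an unadjusted p under 0.05, and DESeq2 called no member either). The median over the 6, which include S100a4 through its esophagus counts, was 0.81, beside -0.18 over all genes tested. The value of Tmsb4x turned to 1.08 without bone marrow of mice 5 and 7, an alternative added after the data were seen and chosen for the Tmsb4x level of these libraries, so that it describes the remaining pair and tests nothing, and those of Actb and Pfn1 turned to -0.48 and -0.64 without the 3 libraries high in mitochondrial counts. With mouse as a fixed block Actb and Pfn1 stood at -0.42 and -0.56, and with mouse as a random block Tmsb10 and Pfn1 at -0.71 and -0.72. Pfn1 was at -1.96 in voom with quality weights, and Tmsb10 at -0.075 without bone marrow of mouse 8. S100a4 stood at 5.19 without bone marrow of mouse 5.

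Between colon and bone marrow the log2 differences were -2.33 (SE 0.64) for Actb, 1.12 (0.83) for Actg1, -6.40 (1.46) for Tmsb4x, -3.23 (1.36) for Tmsb10, -0.79 (1.11) for Pfn1 and -3.68 (1.52) for S100a4. Here too edgeR called no member, where 0.434% of genes tested, 45 in all, were called lower and 0% higher in colon (219 genes had an unadjusted p under 0.05). The fit that blocks on mouse called 80 genes, and Actb was 1 of them (-2.23), while DESeq2 called 81 genes and Tmsb4x (-6.55) was 1 of them. The median over the 6 was -2.78, beside 0.02 over all genes tested, and 5 of 6 were negative. Actb and Tmsb4x were lower in every colon library than in every bone marrow library, as were 3.53% of genes tested. Actg1 turned to -0.21 without colon of mouse 8, Tmsb4x stood at -1.88 without bone marrow of mice 5 and 7, and S100a4 at -1.19 without bone marrow of mouse 5. The 3 tissue comparisons share libraries, so these values are not independent of each other.

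**Figure D4:**
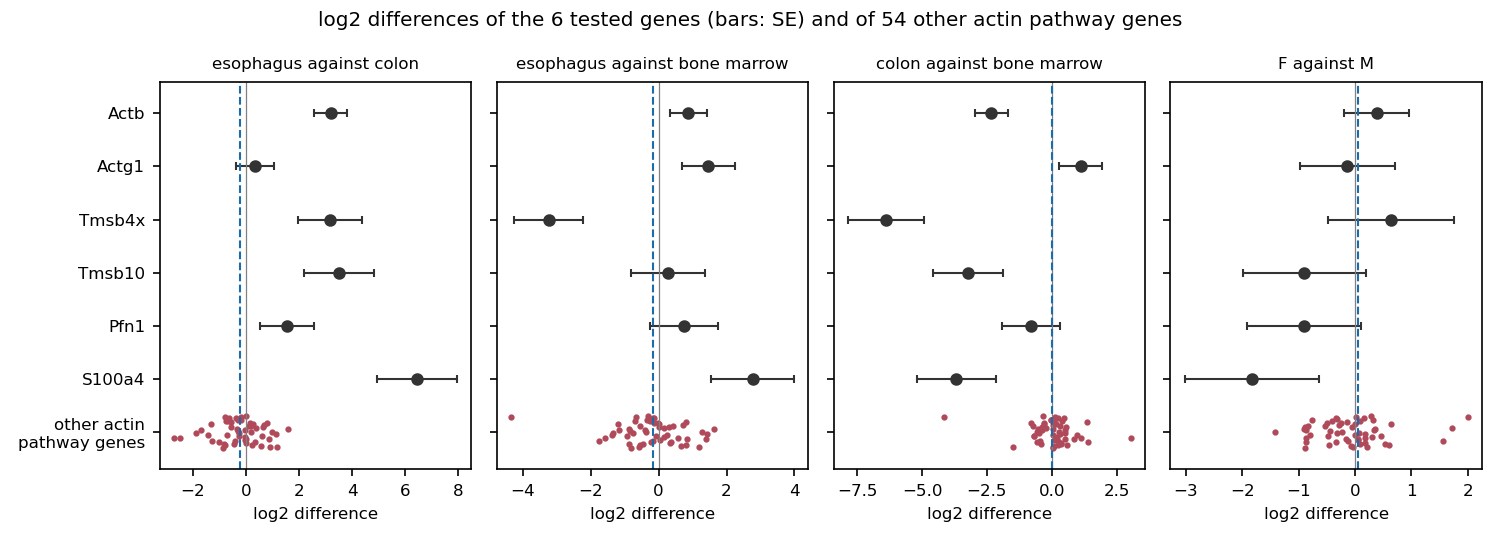
log2 differences of the 6 tested genes (points, with SE bars) in each comparison, and of 54 tested genes of the wider actin pathway (red dots, bottom row). The dashed line is the median of all genes tested, and each panel has its own axis. The members spread to 6.45 between esophagus and colon and to -6.40 between colon and bone marrow, while the medians of the 54 pathway genes in these 2 comparisons are -0.23 and 0.08.

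The comparison of F with M mice was not used in picking the genes and could be tested. The same 10357 genes were fitted in limma voom, where the model held a tissue term and treated mice as random. No member was called, where 0.425% of genes tested were called higher and 0.0676% lower in F (51 genes in all; 207 had an unadjusted p under 0.05, and edgeR without the block called no member). The log2 differences were 0.39 (SE 0.58) for Actb, -0.13 (0.85) for Actg1, 0.64 (1.12) for Tmsb4x, -0.89 (1.10) for Tmsb10, -0.90 (1.02) for Pfn1 and -1.83 (1.19) for S100a4. The smallest unadjusted p of the 6 in limma was 0.138, for S100a4, with an adjusted p of 1.0. The SEs, 0.58 to 1.19 on the log2 scale, limit how small a difference 7 mice could show. A call among 10357 genes takes a difference of several SEs, so differences of either sign larger than 1 SE could be missed too.

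S100a4 in F and M mice shows how the tissues enter that value. In esophagus it was at 0, 17.6, 108 and 0 CPM in F mice, against 544, 56.9 and 69.0 CPM in M mice. In bone marrow it was at 59.2 and 9.14 CPM in F mice, against 0 and 0 CPM in M mice. F and M mice overlap in esophagus. The bone marrow values rest on 7 counts and 1 count in F mice, against 0 and 0 in M mice. A single count is fewer than the 3 behind the floor, so mouse 6 cannot be told from the M mice. An edgeR test of the interaction of tissue and sex gave S100a4 an unadjusted p of 0.00995 and an adjusted p of 1.0, and it called 5 of 10357 genes and 0 members. Tmsb4x in F against M changed sign when bone marrow of mouse 5 (-0.74) or mouse 8 (-1.45) was left out, and stood at 2.94 without bone marrow of mouse 6.

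The wider actin machinery was described from 98 genes in 6 lists, which were written with earlier results of these data known. Of these 54 passed the filter. Between esophagus and colon 0 were called, as were 0.0869% of all genes tested (275 had an unadjusted p under 0.05, and DESeq2 also called 0 of the lists). Between esophagus and bone marrow 1 was called, lower in esophagus, beside 0.83% of all genes tested. Between colon and bone marrow 0 were called (1 with DESeq2 and 1 with mouse as a block), beside 0.434%. In F against M 1 was called, higher in F, beside 0.492%. At these shares, 0 or 1 of 54 is not read as a result about the lists. Each of these calls is Pak2, a kinase that acts below the GTPases Rac and Cdc42. The medians of the 54 genes were -0.23, -0.19 and 0.08 in the 3 tissue comparisons and -0.06 in F against M, beside -0.21, -0.18, 0.02 and 0.05 over all genes tested.

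Pak2 was at 0 to 182 CPM in esophagus (median 91.5), at 95.5, 91.2, 98.3 and 104 CPM in colon of mice 5 to 8, and at 2054, 3693, 506 and 815 CPM in bone marrow. Every bone marrow library was above every esophagus and colon library (2.05% of genes tested were lower in all esophagus than in all bone marrow libraries), and within bone marrow both F mice were above both M mice. The log2 difference was -4.35 (SE 0.81; edgeR adjusted p = 0.0182) between esophagus and bone marrow and -4.17 (0.99; adjusted p = 0.152) between colon and bone marrow, where the fit with mouse as a block gave -3.98 (adjusted p = 0.0203). In F against M mice it was 2.0 (0.42; limma adjusted p = 0.0158). That call was lost when colon of mouse 5, colon of mouse 8, bone marrow of mouse 5 or bone marrow of mouse 6 was left out, and neither edgeR without the block nor the fit without a filter made it. Of the 7 endothelial markers, Pecam1, an adhesion protein of endothelium that leukocytes and platelets carry too, was also higher in every bone marrow library, at 823 to 2368 CPM, against 0 to 69.0 CPM in esophagus and 51.0 to 95.5 CPM in colon. The other 6 markers together overlapped, at 174 to 325 CPM in bone marrow, 130 to 484 CPM in esophagus and 191 to 336 CPM in colon, and none of the 7 was at 0 in a whole tissue. Their part in the Pak2 level was not tested.

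The most abundant tested genes of 5 of the 6 lists show the levels behind these counts. Of the Arp2/3 complex, which starts filament branches, 5 of 9 genes were tested and 0 called. Actr3 averaged 153 ± 75.7 CPM in esophagus (SD, n = 7), 69.6 ± 49.1 in the colon libraries and 66.1 ± 42.9 in bone marrow (SD, n = 4 each). Arpc1b averaged 68.3, 36.6 and 105 CPM and Actr2 45.9, 86.6 and 83.6 CPM in esophagus, colon and bone marrow. Among the promoting factors and formins, which switch filament growth on, 9 of 22 were tested and 0 called, and Enah averaged 272, 284 and 268 CPM, Cyfip1 133, 104 and 154 CPM and Diaph2 106, 143 and 119 CPM in the same order. The colon and bone marrow means were within 1 SD of the esophagus mean for each of these genes but Actr3, whose log2 difference between esophagus and colon was 1.15 (SE 0.79; edgeR adjusted p = 1.0).

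Of the genes for capping, severing and turnover 13 of 21 were tested and 0 called. Ssh2, a phosphatase that activates cofilin, averaged 251 CPM in esophagus, 301 in the colon libraries and 485 in bone marrow, Wdr1, a cofilin helper, 144, 147 and 129 CPM, and Ssh1, a relative of Ssh2, 129, 85.1 and 137 CPM. Of the crosslinkers, membrane linkers and tropomyosins 11 of 18 were tested and 0 called. Lcp1, the filament bundler of leukocytes, averaged 96.7, 102 and 132 CPM in the same order, Msn, which ties filaments to the membrane, 88.7, 69.9 and 80.9 CPM, and Tpm1, a tropomyosin, 66.6, 97.1 and 65.4 CPM. Among the myosins 5 of 11 were tested and 0 called, with Myh9, the non-muscle myosin to which S100a4 binds, at 176, 109 and 104 CPM, Myo5a at 163, 147 and 181 CPM and Myo1g at 86.7, 49.1 and 88.2 CPM.

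Few close relatives of the members passed the filter. Of 9 other actin and thymosin genes 6 had a row and none passed the filter, with 2 to 35 counts per gene in esophagus, 6 to 31 in the colon libraries and 0 to 36 in bone marrow. The muscle actin Acta2 had 26, 26 and 3 counts in esophagus, colon and bone marrow. Of 16 other genes with S100 names 15 had a row, 3 passed the filter (S100a6, S100a9 and S100pbp, which is not a family member) and 0 were called. S100a6 averaged 102 ± 71.6 CPM in esophagus (SD, n = 7), 115 ± 195 in the colon libraries and 35.7 ± 27.7 in bone marrow (SD, n = 4 each). The colon mean rests on mouse 8, the library high in epithelial markers, at 408 CPM, and the other 3 colon libraries were at 11.4 to 20.6 CPM. S100a9, a neutrophil and monocyte protein, averaged 46.0 ± 43.3, 3.64 ± 2.44 and 18.1 ± 30.8 CPM in the same order, with a log2 difference of 3.36 (SE 1.45; edgeR adjusted p = 1.0) between esophagus and colon.

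By the smallest root mean square distance over the 15 libraries from the mean profile of the 6 tested members (log2 CPM centred per gene), the 4 nearest coding genes were Lactb2 (0.685), Foxk2 (0.695), Lars2 (0.705) and Cux1 (0.709). The coding genes tested, members left out, had a median distance of 1.64. The members themselves lay at 1.05 (Actb) to 1.68 (Tmsb4x). Since the 4 genes were picked for the smallest distance among all coding genes tested, nothing is read from their lying nearer than the members.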

How the data were processed

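Per the labels' protocols, total RNA went through Ovation RNA-seq V2 amplification and an NEB library kit. The authors deposited 1 table of raw counts per gene, whole numbers for 26366 genes and 15 libraries. Of tools, limma 3.50.3 appears in the submitters' processing notes, without its role; which aligner, counter, build and annotation served is not given in the sources used here. Columns were matched to samples by title, and 0 columns belong to other samples. Of the gene identifiers 26299 (99.75%) matched GENCODE M21, which gave gene class, chromosome and exonic length.

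The filter was filterByExpr (count 10, total 15). Kept genes were scaled by TMM and tested with edgeR 4.0.16 in R 4.3.3 (robust quasi-likelihood, 15 libraries, 12 residual degrees of freedom, common biological coefficient of variation 0.817). F against M used limma 3.58.1 (within-mouse correlation 0.194). DESeq2 1.42.0, other scalings, filters and fits, and leaving out each library were tried as alternatives. Levels are CPM over the scaled library size. Receptor densities left out receptor genes whose count was in the top 1% of all genes of the library. Python 3.11.15 with scipy 1.17.1 served for intervals. The fits were tested on simulated data. The labels name separate mice but no separate cultures, so p-values measure the spread between these libraries. The main edgeR tissue fit held no mouse term, so it treated libraries of the same mouse as independent.

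The labels tie libraries to mice. Over genes, deviations from the group mean had correlations of -0.0198 to 0.0368 in the 12 pairs of libraries from 1 mouse (mean 0.0170), and in 60 other pairs of -0.0623 to 0.0698 (mean -0.00317). The members and lists were chosen with earlier results of these data known. Named were all members, the 3 most abundant tested genes and every called gene of each pathway list, and the 5 nearest genes; 1 of these 5, and the most abundant genes of 1 list, are not reported here. S100a9, Acta2, Cd74, H2-Ab1, Epx, Prg2, Ccr3, Il5ra, Siglecf, Pecam1, S100a6 and S100pbp were named after their values were seen.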

Additional observations from a re-analysis of the deposited data

Results flagged for a closer look

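In groups of 4 to 7 libraries, 6 of 24 groups of a member and a tissue held a library whose gap to the next passed Dixon's 95% limit. For normally distributed values chance gives about 1.2 of 24. These levels are sparse and skewed, so no excess is read from the 6. Actg1 was at 405 CPM in colon of mouse 8, and the nearest colon library was at 61.7 CPM. Tmsb4x was at 1277 CPM in esophagus of mouse 1, with the nearest at 600 CPM. Coro1a was at 302 CPM and S100a4 at 544 CPM in esophagus of mouse 3, with the nearest at 87.5 and 108 CPM. S100a4 was at 2.29 CPM in colon of mouse 7, a single count beside 3 libraries at 0, and at 59.2 CPM in bone marrow of mouse 5, with the nearest at 9.14 CPM. The 3 libraries with over 2% mitochondrial counts hold 4 of these 6 values. The bone marrow split of Tmsb4x into 2 and 2 libraries cannot be found by this rule, which looks for single libraries.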

How the results depend on the processing

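Precision is limited by depth: 19 of 120 pairs of member and library had 0 counts, and a count of 0 allows up to 35 CPM over the library total. Scaling shifted the median of all genes between tissues by up to 0.38 on the log2 scale (library size alone, esophagus against bone marrow), and every scaling tried kept the direction of each member's tissue differences. With 1 library left out, 1 to 32 genes were called between esophagus and colon (1 without esophagus of mouse 3, 32 without bone marrow of mouse 8), 74 to 117 between esophagus and bone marrow, 42 to 80 between colon and bone marrow, and 22 to 76 in F against M, beside 9, 86, 45 and 51 over all libraries. Pathway genes called were 0, 1, 0 to 1 and 0 to 1 in the same order. DESeq2 called 81 genes and 1 pathway gene between colon and bone marrow. voom with quality weights called 4, 24 and 167 genes in the 3 tissue comparisons, with 0 pathway genes in the second and 1 in the third. Without a filter the counts were 97, 153 and 79, with 1 pathway gene in the third, and 29 with 0 pathway genes in F against M. A stricter filter called 2 genes between esophagus and colon and 1 pathway gene between colon and bone marrow. Fits on the compared tissues only called 16 between esophagus and colon, and 139 with 1 pathway gene between colon and bone marrow. With mouse as a fixed replicate block the counts were 4 between esophagus and colon and 80 with 1 pathway gene between colon and bone marrow; with mouse as a random block they were 3 and 14, with 0 pathway genes between esophagus and bone marrow. In F against M, edgeR with no replicate block called 10 genes and 0 pathway genes, and the esophagus libraries alone called 0 genes and 0 pathway genes. Without the libraries high in mitochondrial counts 3 genes were called between esophagus and colon, and without bone marrow of mice 5 and 7, 36; both called 1 pathway gene between colon and bone marrow. The cause of these moves was not tested.

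The calls of Actb and S100a4 between esophagus and colon were not stable. Actb was not called without esophagus of mouse 1 or 3, and S100a4 not without esophagus of mouse 1 or colon of mouse 5, 6 or 8, nor in the 5 other leave-one-out fits, where it missed the filter. Neither was called with upper quartile scaling, voom with quality weights, the stricter filter or either replicate block, nor S100a4 with DESeq2. Between colon and bone marrow Actb was called in 3 of 12 other alternatives, Tmsb4x in 2, and between esophagus and colon Tmsb4x in 2. In F against M Actg1 turned positive with edgeR and no replicate block (0.14), without a filter (0.033) and without esophagus of mouse 6 (0.06), colon of mouse 5 (0.08) or colon of mouse 8 (0.78), and Tmsb4x turned negative without bone marrow of mouse 5 (-0.74) or mouse 8 (-1.45). With 1 library left out they ranged from -0.98 to 0.78 and from -1.45 to 2.94.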
